A study of Drosophila melanogaster with 12 samples.

Results

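The contractile genes of the ovarian sheath muscle are a set of 10 sarcomere genes chosen by name for their known function. They were followed across the ovaries of 3 *Drosophila melanogaster* genotypes. Of the 10 symbols, 9 were matched to FlyBase identifiers among the 17023 gene identifiers measured: *Mhc*, *Mlc1*, *Mlc2*, *Prm*, *Act57B*, *Tm2*, *up*, *bt* and *sls*. The troponin I gene *wupA* was not matched to an identifier and was not analysed here. All 9 matched genes passed the filter on low counts.

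Muscle contracts when thick filaments of myosin slide along thin filaments of actin inside the sarcomere. Tropomyosin and the troponin complex cover the thin filament and let myosin bind when calcium rises, and giant elastic proteins hold the thick filaments in register. In the fly ovary the germline is carried in ovarioles, each wrapped in an epithelial sheath of small striated muscle cells, and a peritoneal sheath of muscle surrounds the whole ovary. Both sheaths are somatic, and they are carried along when a whole ovary is dissected.

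The genotypes drive transgenes with NosGAL4, which is expressed in the germline and not in muscle. The first is NosGAL4 > UAS-tkv, in which overexpression of the BMP receptor *tkv* fills the germline with stem cells (GSCs). The second is UAS-Dicer2;NosGAL4 > bam RNAi, which lowers a differentiation factor and fills it with GSC daughters (cystoblasts), and the third is UAS-Dicer2;NosGAL4 > aramis RNAi, which lowers a DEAD-box helicase gene. UAS-Dicer2 is carried by both RNAi genotypes and not by UAS-tkv. Whole ovaries were dissected 1 to 3 days after eclosion from flies fattened on yeast. Each genotype gave 2 input libraries, from the 20% of the polysome lysate that was set aside, and 2 polysome libraries from gradient fractions. This gives 6 groups of 2 libraries, 12 libraries in all. No source used here says that the replicates came from separate crosses, and the p-values below reflect the spread among these libraries alone, which may be technical. The labels name the tissue as ovaries without saying how closely the oviduct, the fat body or other attached tissue was trimmed.

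Total counts ran from 3131667 to 15039925 per library, and the sarcomere genes took from 0.559% to 3.52% of them. Levels are given as CPM, counts divided by library sizes that were scaled by trimmed mean of M-values (TMM). The gene *ais* (aramis) was at 34.2 and 29.5 CPM in UAS-tkv inputs and at 8.50 and 11.2 CPM in aramis RNAi inputs. Input libraries of bam RNAi held *bam* at 3.55 and 2.48 CPM, below the 8.21 and 8.23 CPM of UAS-tkv, and it was lower still in aramis RNAi inputs, at 0.590 and 0.702 CPM.

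The genes are spread over the genome (dm6 build) and differ widely in size. *Mhc* (FBgn0264695), at chr2L:16766566-16788766 on the plus strand, has 9058 bases of exon in 21 annotated transcripts. The myosin light chain genes are short, with 1414 bases of exon in *Mlc1* (FBgn0002772, chr3R:27657078-27660177, minus strand) and 2286 bases in *Mlc2* (FBgn0002773, chr3R:30171438-30174551, minus strand). *Prm* (FBgn0003149) at chr3L:8732858-8745310 on the minus strand has 5356 bases of exon.

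Of the thin filament genes, *Act57B* (FBgn0000044, chr2R:20944021-20946431, plus strand) has 1724 bases of exon. The annotated snoRNA:660 shares 96 of these bases and had 0 counts in every library. *Tm2* (FBgn0004117, chr3R:15310193-15315197, plus strand) has 2613 bases and *up* (FBgn0004169, chrX:13593474-13602578, minus strand) has 2530 bases. The elastic protein genes are the longest, with 28019 bases in *bt* (FBgn0005666, chr4:724400-776474, plus strand) and 58996 bases in *sls* (FBgn0086906, chr3L:2039681-2115611, minus strand). Over 1089 bases *sls* overlaps asRNA:CR42860 on the other strand, which held 70 counts in all libraries together. Reads of close actin and tropomyosin paralogs could have been divided between genes in the counting, so single values of *Act57B* and *Tm2* carry that uncertainty.

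To determine how much of each sarcomere mRNA was present in the whole lysate, the input libraries were examined first. The genes were highest in aramis RNAi inputs, lowest in UAS-tkv inputs and in between in bam RNAi inputs. Summed over the 9 genes, UAS-tkv replicates 1 and 2 held 6382 and 14239 CPM, against 13298 and 22615 CPM in bam RNAi and 41542 and 39440 CPM in aramis RNAi. The aramis RNAi replicates lay close together, whereas replicates 1 and 2 of the other genotypes were far apart.

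**Figure D1:**
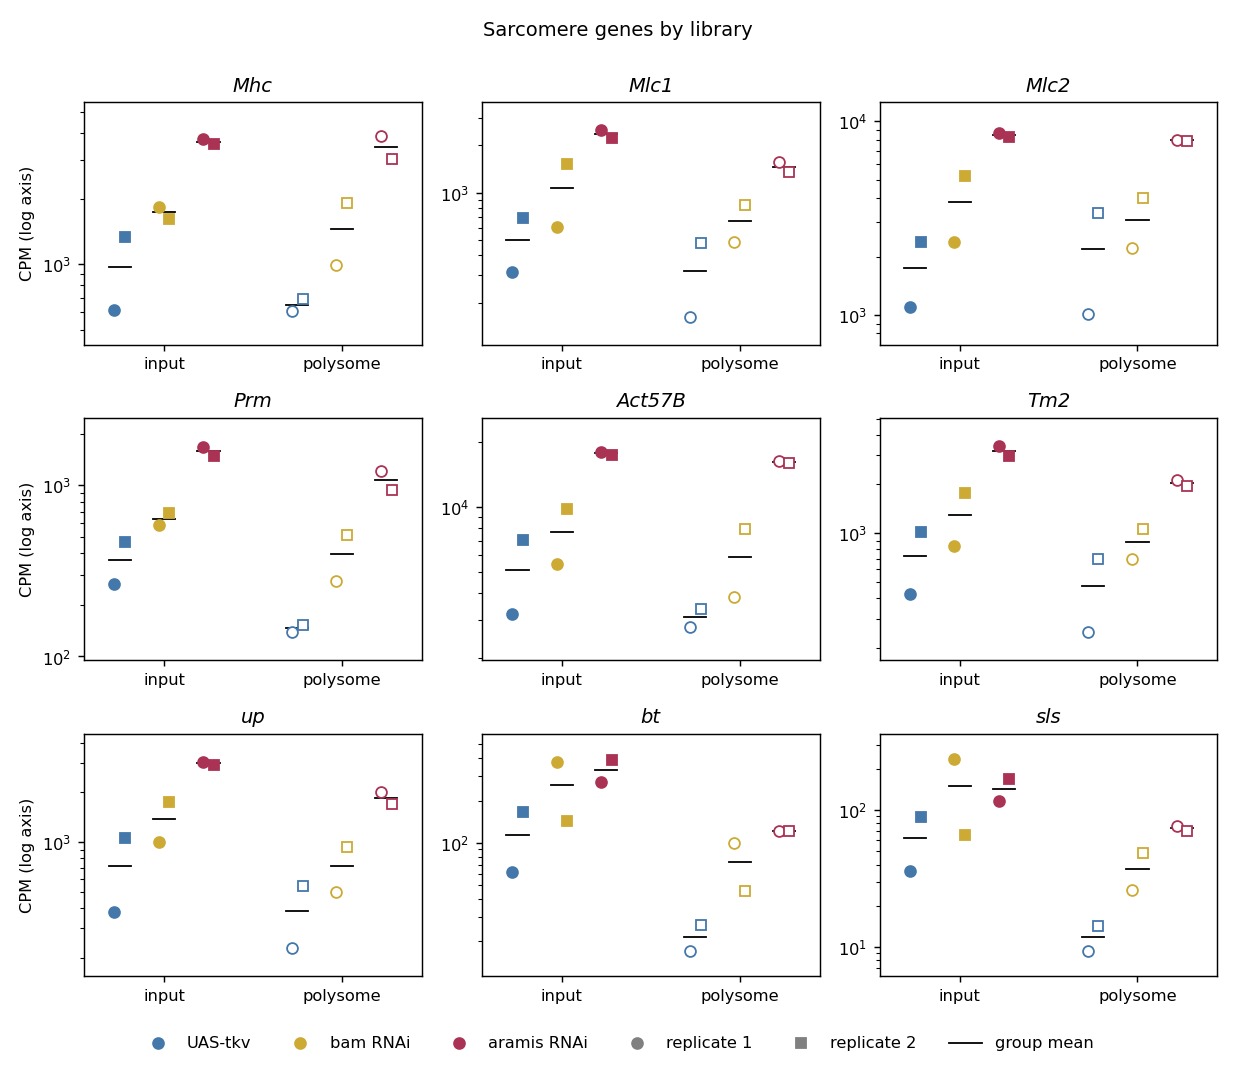
Level of each of the 9 sarcomere genes in every library, in CPM on a log axis, for input (filled symbols) and polysome (open symbols). Circles are replicate 1, squares are replicate 2, and horizontal lines are group means of n = 2 libraries. Every aramis RNAi library lies above both UAS-tkv libraries of its fraction for all 9 genes, and bt and sls are the genes whose aramis RNAi and bam RNAi inputs overlap.

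*Mhc* encodes the heavy chain of muscle myosin, the motor of the thick filament. Its level was 615 and 1333 CPM in UAS-tkv inputs, 1836 and 1618 CPM in bam RNAi inputs, and 3755 and 3556 CPM in aramis RNAi inputs. The 3 genotypes did not overlap, and *Mhc* was the gene whose bam RNAi replicates agreed best. *Mlc1* encodes the alkali (essential) light chain, which braces the myosin neck. Its level was 312 and 691 CPM in UAS-tkv inputs, 604 and 1531 CPM in bam RNAi inputs, and 2513 and 2221 CPM in aramis RNAi inputs. *Mlc2* encodes the regulatory light chain, whose phosphorylation tunes myosin in flight muscle. It was at 1093 and 2388 CPM in UAS-tkv inputs, 2367 and 5247 CPM in bam RNAi inputs, and 8663 and 8270 CPM in aramis RNAi inputs. For both light chains replicate 1 of bam RNAi lay below replicate 2 of UAS-tkv, so those groups overlapped, while aramis RNAi lay above both.

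*Prm* encodes paramyosin, a rod protein of the core of invertebrate thick filaments. It was at 263 and 467 CPM in UAS-tkv inputs, 588 and 689 CPM in bam RNAi inputs, and 1671 and 1480 CPM in aramis RNAi inputs. *Prm* had the smallest replicate gap of the 9 genes in UAS-tkv, and its 3 genotypes did not overlap. *Act57B*, a muscle actin of larval and visceral muscle, was the most abundant of the genes and made up from 36.3% to 53.4% of their summed CPM over the 12 libraries. Its level was 3197 and 7022 CPM in UAS-tkv inputs, 5454 and 9829 CPM in bam RNAi inputs, and 18092 and 17462 CPM in aramis RNAi inputs.

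*Tm2*, a muscle tropomyosin that lies along the actin filament, was at 425 and 1020 CPM in UAS-tkv inputs, 838 and 1751 CPM in bam RNAi inputs, and 3406 and 2955 CPM in aramis RNAi inputs. *up* encodes troponin T, which ties the troponin complex to tropomyosin. It was at 379 and 1064 CPM in UAS-tkv inputs, 1004 and 1740 CPM in bam RNAi inputs, and 3054 and 2937 CPM in aramis RNAi inputs. *Act57B*, *Tm2* and *up* all showed the order seen for the light chains, with overlap between UAS-tkv and bam RNAi and none with aramis RNAi.

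The 2 elastic protein genes behaved differently. *bt* encodes projectin, a titin-like kinase of the thick filament, and was at 62.0 and 165 CPM in UAS-tkv inputs, 373 and 144 CPM in bam RNAi inputs, and 272 and 390.5 CPM in aramis RNAi inputs. *sls* encodes kettin and Sallimus, which anchor thin and thick filaments at the Z-disc, and was at 35.6 and 89.3 CPM, 235 and 65.5 CPM, and 117 and 170 CPM in the same libraries. In both genes bam RNAi replicate 1 was far above replicate 2, the reverse of the short genes. For *sls* the bam RNAi inputs lay on either side of both aramis RNAi inputs.

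To compare the genotypes, log2 fold changes were taken from an edgeR quasi-likelihood fit of all 12 libraries, with Benjamini-Hochberg adjustment over 9745 genes and a threshold of 0.05. In aramis RNAi inputs against UAS-tkv inputs, 6 of the 9 genes rose, where 10.1% of all genes tested rose. These were *Mhc*, *Mlc1*, *Mlc2*, *Prm*, *Tm2* and *up*. Against the same UAS-tkv inputs the median of the 9 genes was 2.05 on the log2 scale, and the median of all genes was -0.04. All 9 had replicates that did not overlap, with aramis RNAi higher, against 37.9% of all genes.

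The best supported change in input was in *Prm*, at 2.11 ± 0.39 (log2, SE) and an adjusted p of 0.0054 by edgeR. *Mhc* rose by 1.91 ± 0.47 (adjusted p = 0.0169). The light chain genes and *Tm2* had larger standard errors, with *Mlc1* at 2.24 ± 0.61 (adjusted p = 0.0262). *Act57B* had a difference of 1.80 ± 0.60 and did not pass the test (adjusted p = 0.0561), nor did *bt* (1.55 ± 0.55, adjusted p = 0.0718) or *sls* (1.20 ± 0.58, adjusted p = 0.175).

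Which of these genes passed the test rested on single libraries and on the scaling. UAS-tkv input replicate 1 held the lowest level of every sarcomere gene among the inputs, and without it the median log2 difference was 1.41. Without aramis RNAi input replicate 1 or replicate 2 the medians were 2.02 and 2.08. Fewer sarcomere genes passed in these fits, each of which leaves 1 library in a group and weakens the test for every gene. No sarcomere gene changed sign under any alternative in this comparison. Scaling by total counts alone moved the median of all genes to -0.48 and that of the sarcomere genes to 1.60, and 1 of 9 passed. Under that scaling 323 genes of the whole table rose and 1239 fell, against 989 and 851 with TMM.

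**Figure D2:**
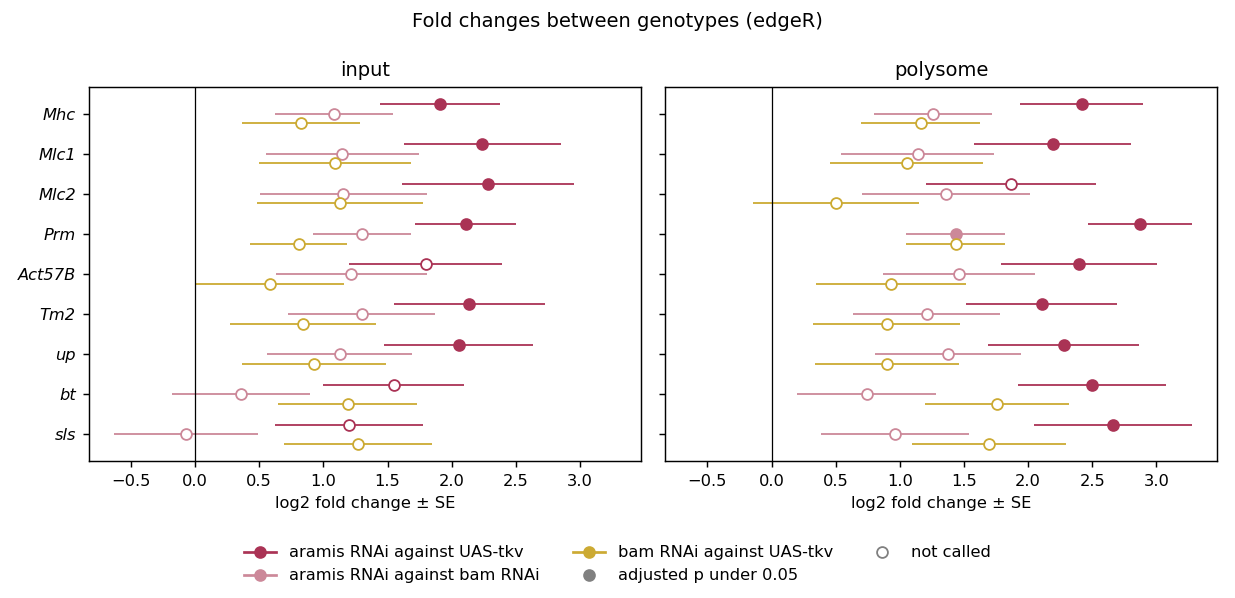
Fitted log2 fold change ± SE of each sarcomere gene in the 3 comparisons of genotypes, for input (left) and polysome (right), from edgeR with n = 2 libraries per group. Filled points have an adjusted p under 0.05 and open points do not. In aramis RNAi against UAS-tkv 6 genes are filled in input and 8 in polysome, and *Prm* in polysome is the only filled point in the other comparisons.

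Between aramis RNAi and bam RNAi inputs, 0 of 9 genes passed the edgeR test, where 0.944% of all genes rose. There were 3 at an unadjusted p under 0.05, where 2184 of all 9745 genes were, and DESeq2 called 3, where it called 496 genes higher. The median log2 difference was 1.15, against -0.03 for all genes, and 7 of 9 genes had aramis RNAi replicates above both bam RNAi replicates, against 33.1% of all genes. The exceptions were *bt* (0.36 ± 0.54) and *sls* (-0.07 ± 0.56). Without bam RNAi input replicate 1 their values were 1.15 and 1.07, and without replicate 2 they were -0.18 and -0.72, so replicate choice set the sign for *bt* and *sls*.

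Between bam RNAi and UAS-tkv inputs, 0 of 9 genes passed the edgeR test, where 0.0308% of all genes rose. At an unadjusted p under 0.05 there was 1, where 565 of all 9745 genes were. DESeq2 called 0, where it called 40 genes higher. The median log2 difference was 0.93, against 0.04 for all genes, with values from 0.58 for *Act57B* to 1.27 for *sls*. Only *Mhc* and *Prm* had replicates that did not overlap, against 23.1% of all genes. The comparisons of the 3 genotypes share libraries and are not independent of each other.

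The polysome libraries, which hold mRNA recovered from ribosome-bearing gradient fractions, gave a similar order of the genotypes. The summed level of the genes was 5203 and 9346 CPM in UAS-tkv polysomes, 9125 and 17266 CPM in bam RNAi polysomes, and 35411 and 33129 CPM in aramis RNAi polysomes. *Mhc* was at 608 and 687 CPM in UAS-tkv polysomes, 990.5 and 1906 CPM in bam RNAi polysomes, and 3881 and 3042 CPM in aramis RNAi polysomes. *Prm* was at 140 and 153 CPM, 276 and 514 CPM, and 1205 and 936 CPM in the same order. These 2 genes had close UAS-tkv replicates, and their 3 genotypes did not overlap.

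*Act57B* was at 2779 and 3388 CPM in UAS-tkv polysomes, 3842 and 7928 CPM in bam RNAi polysomes, and 16399 and 16055 CPM in aramis RNAi polysomes. Its UAS-tkv replicates were closer in polysomes than in input. *Mlc2* was at 1014 and 3363 CPM, 2202 and 3998 CPM, and 8051 and 7884 CPM, with the widest UAS-tkv replicate gap of the 9 genes. *bt* was low throughout, at 17.2 and 26.0 CPM, 100.5 and 45.7 CPM, and 121.4 and 121.5 CPM. *sls* was lower still, at 9.35 and 14.2 CPM, 26.2 and 48.7 CPM, and 76.6 and 70.6 CPM.

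In aramis RNAi polysomes against UAS-tkv polysomes, 8 of 9 genes rose by the edgeR test, where 17.2% of all genes rose, and the median was 2.40 against 0.02 for all genes. *Prm* had the largest change at 2.87 ± 0.41 (log2, SE; adjusted p = 0.00099), followed by *sls* at 2.66 ± 0.62 (adjusted p = 0.0083) and *bt* at 2.50 ± 0.58 (adjusted p = 0.0080). *Mhc* rose by 2.42 ± 0.48 (adjusted p = 0.0040). *Mlc2* was at 1.86 ± 0.66 and did not pass (adjusted p = 0.0521). All 9 genes had replicates that did not overlap, against 33.9% of all genes. Without UAS-tkv polysome replicate 1 the median was 2.19, and without aramis RNAi polysome replicate 1, the deepest of that group, it was 2.18. Fewer sarcomere genes passed in these fits, which weaken the test for every gene. With any 1 of the 4 libraries left out *Mhc* ran from 2.18 to 2.59 and *Prm* from 2.63 to 3.05.

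Between aramis RNAi and bam RNAi polysomes only *Prm* passed the edgeR test, at 1.44 ± 0.39 (adjusted p = 0.0377), where 5.83% of all genes rose. The median was 1.26 against 0.07 for all genes, and all 9 genes had replicates that did not overlap, against 31.4% of all genes. With 1 library left out the difference in *Prm* ran from 1.06 to 1.92, and its call did not hold in every such fit. Between bam RNAi and UAS-tkv polysomes 0 of 9 passed with edgeR, where 0.421% of all genes rose. At an unadjusted p under 0.05 there were 4, where 1385 of all 9745 genes were. DESeq2 called 3, where it called 382 genes higher. That median was 1.05 against 0.01 for all genes. In 7 of 9 genes, all but *Mlc2* and *up*, the bam RNAi polysomes lay above both UAS-tkv polysomes, against 15.7% of all genes. With 1 library left out *Prm* ran from 0.93 to 1.82 in this comparison and *Mlc2* from -0.12 to 1.62.

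Ovaries of the 3 genotypes hold different germ cells. In bulk RNA fewer cells of a type and less RNA per cell cannot be told apart, and neither can more muscle RNA and less germline RNA. The 8 matched germline markers (among them *aub*, *otu*, *zpg* and *bgcn*) summed to 1175 and 849.8 CPM in UAS-tkv inputs, 852 and 589 CPM in bam RNAi inputs, and 109 and 131 CPM in aramis RNAi inputs. All 8 fell in aramis RNAi against UAS-tkv inputs, with a median of -3.20, where 8.73% of all genes fell. The part of this shift in the sarcomere results was not tested.

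To ask whether the sarcomere genes kept fixed proportions, levels were compared per length as TPM, counts per base of exon scaled to the same sum in every library. The order was *Act57B*, *Mlc2*, *Mlc1*, then *Tm2* and *up*, then *Mhc*, *Prm*, *bt* and *sls* in each of the 6 groups. In polysomes *Tm2* was above *up* in all 3 genotypes, with *up* at 0.742 to 0.983 times *Tm2*. Among input groups *Tm2* and *up* exchanged places and did not differ beyond their spread. In aramis RNAi inputs, for example, *Tm2* was at 1606 ± 125 TPM and *up* at 1563 ± 7.70 TPM (SD, n = 2). *Act57B* was at 13618 ± 32.2 TPM, *Mlc2* at 4891 ± 49.3 TPM and *Mhc* at 533 ± 8.43 TPM in the same inputs. *bt* at 15.7 ± 4.29 TPM and *sls* at 3.21 ± 0.91 TPM were the lowest.

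Some proportions varied little among inputs. Over the 6 inputs the TPM of *Mlc2* was 2.12 to 2.42 times that of *Mlc1*, and *up* was 0.92 to 1.24 times *Tm2*. *Prm* was 0.541 to 0.752 times *Mhc* in inputs and 0.375 to 0.525 times in polysomes. *Mlc1* was 2.11 to 6.06 times *Mhc* over the same inputs, and *sls* was 0.00476 to 0.0196 times *Mhc*. In polysomes *Mlc2* was 2.80 to 4.36 times *Mlc1*, above every input value, and *sls* was 0.00236 to 0.00405 times *Mhc*, below every input value. *Act57B* was 15.6 to 31.9 times *Mhc* in inputs and 20.4 to 27.7 times in polysomes, and *sls* was 0.203 to 0.299 times *bt* in inputs and 0.124 to 0.507 times in polysomes.

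Replicates differed in 2 distinct ways. In UAS-tkv inputs all 9 genes were higher in replicate 2, by 1.77- to 2.81-fold with a median of 2.21-fold. In aramis RNAi inputs the higher replicate exceeded the lower by 1.04- to 1.46-fold, and 2 of 9 genes, *bt* and *sls*, were higher in replicate 2. In bam RNAi inputs 6 of 9 genes were higher in replicate 2 and the gap reached 3.58-fold in *sls*.

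The bam RNAi difference followed exon length. On the log2 scale replicate 2 exceeded replicate 1 by 1.34 in *Mlc1*, the shortest gene, and by 0.23 in *Prm*. The difference was -0.18 in *Mhc*, -1.37 in *bt* and -1.84 in *sls*, the longest gene. Over the 9 genes it had a Pearson's r of -0.99 and a Spearman's rho of -0.92 with log2 exon length, as a description of 1 pair of libraries. The other genes of the table moved the same way in these libraries, with medians of 0.29 under 2 kb of exon (4770 genes), -0.19 from 2 to 5 kb (3498 genes), -0.68 from 5 to 10 kb (1030 genes) and -0.84 from 10 to 20 kb (218 genes). Over 20 kb, the class of *bt* and *sls*, the median of the 16 other genes was -0.89, less far below 0 than *bt* or *sls*. In the UAS-tkv inputs r was 0.27 and all 9 genes shifted by a similar amount. In aramis RNAi inputs r was 0.88 with a rho of 0.43, from the shifts of *bt* (0.52) and *sls* (0.54).

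**Figure D3:**
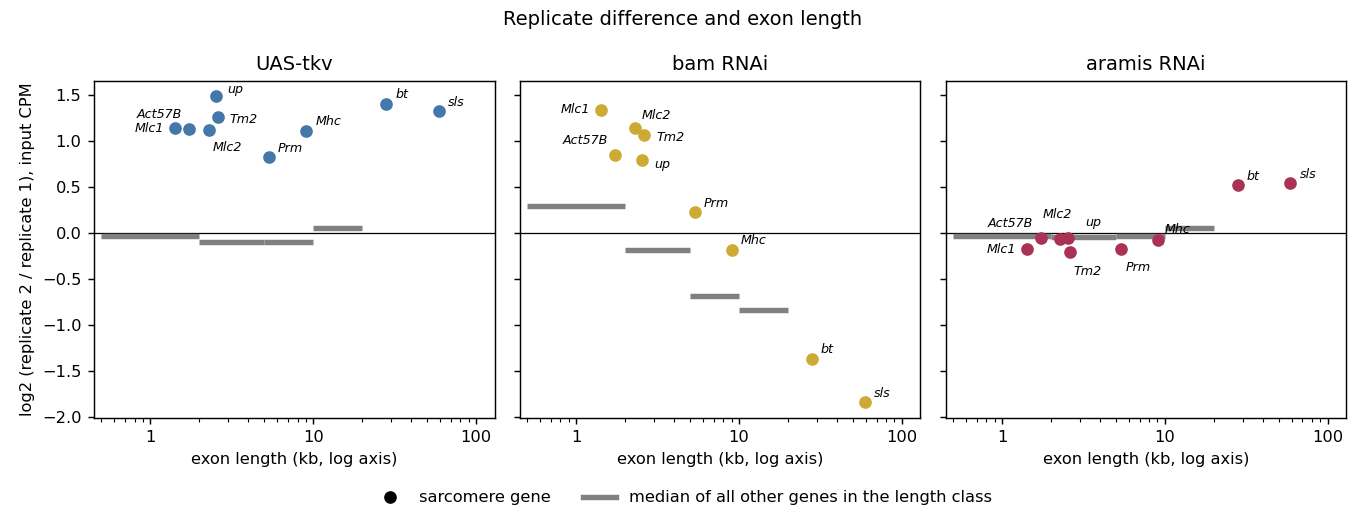
Difference between the 2 input replicates of each genotype (log2 of replicate 2 over replicate 1, from CPM) against exon length in kb on a log axis. Points are the sarcomere genes and grey bars are medians of all other genes in 4 length classes up to 20 kb. Points of bam RNAi fall from 1.34 (*Mlc1*) to -1.84 (*sls*), whereas those of UAS-tkv all lie between 0.83 and 1.49.

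The UAS-tkv replicates also differed in markers of tissue next to the ovary. The 13 midgut markers, mostly secreted digestive enzymes, summed to 11.5 CPM in UAS-tkv input replicate 1 and 535 CPM in replicate 2, and to 4.11 and 857 CPM in the polysomes. They summed to 19.2 and 124 CPM in bam RNAi inputs and to 289 and 260.3 CPM in aramis RNAi inputs. The 5 spermatheca and accessory gland markers were at 65.4 and 238 CPM in the UAS-tkv inputs, 58.7 and 68.5 CPM in bam RNAi inputs and 171 and 78.8 CPM in aramis RNAi inputs. The 9 fat body markers were at 89.9 and 379 CPM in UAS-tkv inputs, 184 and 167 CPM in bam RNAi inputs and 655 and 625 CPM in aramis RNAi inputs, where they were highest, as were the sarcomere genes. In UAS-tkv the input low in midgut markers was also low in sarcomere genes. In bam RNAi this held for 6 of 9 genes, the shorter ones, and fat body markers did not differ in that direction. Across genotypes the midgut markers did not follow the sarcomere genes. UAS-tkv input replicate 2 held more midgut CPM than either aramis RNAi input, with a sarcomere sum of 14239 CPM against 41542 and 39440 CPM. Visceral muscle of the gut and oviduct expresses sarcomere genes as well, and the part of such tissue in these levels was not tested.

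Translational efficiency (TE), which compares polysome with input RNA of 1 lysate, was computed as log2 of polysome TPM plus 1 over input TPM plus 1. The sarcomere mRNAs tended to lie below the median of all genes. Their median log2 TE was -1.05 and -1.58 in the UAS-tkv lysates, where the medians of 9541 genes were -0.30 and -0.54. In bam RNAi it was -2.08 and -0.04, against -1.23 and 0.32 for all genes. In aramis RNAi it was -0.24 and -0.72, against 0.24 and -0.09. In each of the 6 lysates at least 8 of the 9 genes lay below the median of all genes. The median log2 TE of other genes was lower in each longer class up to 20 kb in all 6 lysates, going from 0 under 2 kb to -1.04 from 5 to 10 kb in UAS-tkv replicate 1. Set beside the other genes of its own length class, each of *Mlc1*, *Act57B*, *up*, *Prm* and *bt* was below the class median in 6 of 6 lysates, *Tm2* in 5 and *sls* in 4. *Mlc2* was below it in 2 lysates and *Mhc* in 1. The class of *bt* and *sls*, over 20 kb, held 16 other genes. Neither the medians of all genes nor the class medians were matched on level. The added 1 draws the TE of genes of low TPM toward 0, and such genes are part of these medians. How far this set the abundant sarcomere mRNAs below the medians was not tested.

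Among the sarcomere mRNAs *bt* had the lowest mean log2 TE in all 3 genotypes, at -1.96 ± 0.78 (SD, n = 2) in UAS-tkv, -1.90 ± 1.20 (n = 2) in bam RNAi and, least low, -1.19 ± 0.54 (n = 2) in aramis RNAi. *Mlc2* was the highest in UAS-tkv and in bam RNAi, at -0.29 ± 0.20 and -0.66 ± 0.91. In aramis RNAi *Mlc2* (0.02 ± 0.20), *Mhc* (0.02 ± 0.42) and *Act57B* (-0.03 ± 0.21) were near 0. At 1.01 TPM in UAS-tkv polysomes for *bt* and 0.262 TPM for *sls*, the added 1 weighs on these values. TRIzol was used for input RNA and acid phenol-chloroform for polysome RNA, and extraction and ribosome association cannot be told apart in TE.

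The bam RNAi lysates were far apart for every one of the 9 genes. *Mhc* was at -2.08 in replicate 1 and 0.61 in replicate 2, and *Prm* at -2.26 and -0.04. The median of all genes differed between these lysates in the same direction, and the share of counts in 87 cytosolic ribosomal protein genes was 33.0% in polysome replicate 1 and 9.32% in polysome replicate 2 of bam RNAi. Over all genes the deviations of input and polysome libraries of equal number correlated at 0.54 in UAS-tkv, 0.39 in aramis RNAi and -0.0029 in bam RNAi, so that equal numbers did not deviate together in bam RNAi. How far this moved the sarcomere values was not tested.

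**Figure D4:**
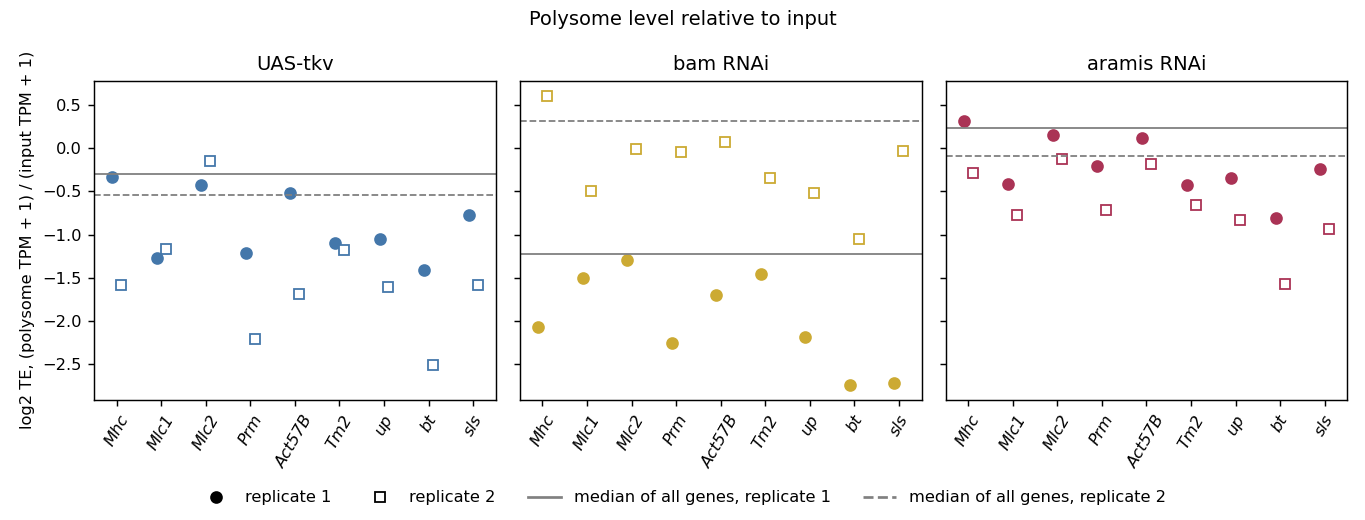
log2 TE of each sarcomere gene in each lysate, with circles for replicate 1 and squares for replicate 2. The solid and dashed lines are the medians of 9541 genes in replicates 1 and 2. In bam RNAi replicate 1 lies below replicate 2 for all 9 genes, as do the medians of all genes (-1.23 and 0.32).

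No TE difference of a sarcomere gene between genotypes was called by the edgeR interaction test of fraction and genotype. This fit held no term for the lysate that input and polysome libraries share. A fit with a lysate replicate block called 0 of 9745 genes in each comparison. In each of the 3 comparisons 0 of 9 genes passed, 0 were at an unadjusted p under 0.05 and DESeq2 called 0. Of all genes, 0.0103% passed in the higher direction for aramis RNAi against UAS-tkv and for bam RNAi against UAS-tkv, and 0.0% for aramis RNAi against bam RNAi. The log2 differences of the 9 genes ran from -0.42 to 1.46 with a median of 0.51 for aramis RNAi against UAS-tkv. They ran from -0.09 to 1.04 (median 0.21) for aramis RNAi against bam RNAi and from -0.63 to 0.63 (median 0.34) for bam RNAi against UAS-tkv. The median standard error of the difference of a single gene was 0.80 in each comparison. With 2 libraries per group, single-gene differences of the size of these medians could be missed by the test.

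The other genes of the sarcomere were counted from lists of known function. Of 12 further thin filament genes tested, 6 rose in aramis RNAi against UAS-tkv inputs, where 10.1% of all genes rose, 0 fell, and the list's median was 1.69. The highest of those that passed were *TpnC73F*, a troponin C gene (2.07 ± 0.53), *Mp20*, a calponin-like muscle protein (2.01 ± 0.47), and *Tm1*, the other tropomyosin gene (1.84 ± 0.49). The lowest was *tmod*, the cap of the pointed end of actin (1.26 ± 0.39). *Act87E*, another muscle actin, was at 200.4 and 448 CPM in UAS-tkv inputs, 331 and 686 CPM in bam RNAi inputs and 1188 and 1055 CPM in aramis RNAi inputs. These values follow the order of *Act57B* at a far lower level. In polysomes 7 of the 12 rose, where 17.2% of all genes rose, with a median of 1.80.

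Of 8 further thick filament, Z-disc and M-line genes tested, 6 rose in input and 7 in polysomes, with medians of 1.85 and 2.12, and 0 fell. The shares of all genes that rose were 10.1% and 17.2%. The PDZ and LIM proteins of the Z-disc were among them, with *Zasp66* at 2.15 ± 0.51 and *Zasp52* at 1.85 ± 0.36. *Mf* (myofilin), a thick filament protein, was at 1.95 ± 0.45. The lowest that passed was *Actn*, alpha-actinin, at 1.15 ± 0.29. Of 3 tested genes of calcium handling and energy supply, *RyR*, the calcium release channel, rose in input (1.79 ± 0.49), whereas *Argk1*, arginine kinase, at 1.10 ± 0.37 and *SERCA*, the calcium pump, at 0.97 ± 0.36 did not pass (adjusted p = 0.0601 and 0.0795). All 3 passed with DESeq2, where 1342 of 9745 genes rose, and in a fit of only the groups compared, where 2119 of 8881 rose. With total counts as the only scaling 0 of the 3 passed in input. With 1 library left out their median ran from 0.99 to 1.20. In polysomes *RyR* and *SERCA* passed with edgeR. The sarcolipin-like *SclA* had 0 counts in every library.

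*Mef2*, the transcription factor that drives muscle gene expression, was at 45.5 and 58.1 CPM in UAS-tkv inputs, 73.0 and 77.5 CPM in bam RNAi inputs and 129 and 135 CPM in aramis RNAi inputs. Its groups did not overlap, and its difference of 1.35 ± 0.45 between aramis RNAi and UAS-tkv inputs did not pass (adjusted p = 0.0554). The other factor tested, *bin*, did not follow this order. It was at 4.26 and 7.27 CPM in UAS-tkv inputs, 10.47 and 8.96 CPM in bam RNAi inputs and 5.31 and 4.74 CPM in aramis RNAi inputs. The rest of the list, *twi*, *nau*, *bap* and *HLH54F*, did not pass the low-count filter. The list's median between aramis RNAi and UAS-tkv inputs was 0.58. Of the 2 muscle transcription factors tested, 1 passed in this comparison with DESeq2, with its size factors and without the low-count filter. The same count was reached in a fit of only the groups compared and with a replicate block. With total counts as the only scaling 0 passed, and with 1 library left out the list's median ran from 0.24 to 0.84. In polysomes *Mef2* rose by 2.74 on the log2 scale. The counts for these lists rested on single libraries in the same way as those above. In input, fewer genes of both filament lists passed without UAS-tkv replicate 1 or either aramis RNAi replicate. Fewer thin filament genes also passed in polysomes without these replicates. Such fits leave 1 library in a group, which weakens the test for every gene. With total counts as the only scaling, 1 thin filament gene and 0 thick filament, Z-disc and M-line genes passed in input, where 323 of 9745 genes rose.

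Muscle of the flight motor and the legs uses its own isoforms, and 4 such genes, which are also on the filament lists above, were examined. *Act88F*, the actin of indirect flight muscle, was at 3.12 and 12.6 CPM in UAS-tkv inputs, 4.44 and 7.28 CPM in bam RNAi inputs and 28.3 and 25.3 CPM in aramis RNAi inputs. *fln* (flightin), a thick filament protein of flight muscle, reached at most 0.699 CPM in any library. *TpnC4*, a troponin C of flight muscle, ran from 0 to 9.48 CPM and *Act79B*, an actin of leg and other tubular muscle, from 0 to 10.7 CPM. These 4 genes summed to between 5.09 and 66.0 CPM, against 2779 to 18092 CPM for *Act57B* alone. The median log2 difference of the 3 that passed the low-count filter was 1.79 in aramis RNAi against UAS-tkv inputs. By edgeR 0 of them rose, where 10.1% of all genes rose. At an unadjusted p under 0.05 there was 1, where 3134 of all 9745 genes were. DESeq2 called 1, where it called 1342 genes higher. In polysomes *Act88F* was at 6.69 and 7.38 CPM in UAS-tkv and 34.8 and 56.8 CPM in aramis RNAi, and it rose by 2.70 on the log2 scale, a call that was lost without UAS-tkv replicate 1 or aramis RNAi replicate 2. The libraries hold whole ovaries, and sheath muscle was not separated from other muscle in them.

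Nonmuscle relatives of the sarcomere genes, which form the contractile cortex of most cells, were counted in the same way. Of 7 tested, 5 rose in aramis RNAi against UAS-tkv inputs, where 10.1% of all genes rose, and 6 in polysomes, where 17.2% rose. Their medians were 1.19 and 1.39. *sqh*, the nonmuscle regulatory light chain, was at 270.2 and 302 CPM in UAS-tkv inputs and 704 and 606 CPM in aramis RNAi inputs, a rise of 1.19 ± 0.33 (adjusted p = 0.0273). *Mlc-c*, the nonmuscle essential light chain, was at 393 and 379.9 CPM and at 1058 and 954 CPM, a rise of 1.38 ± 0.40 (adjusted p = 0.0340). *Act42A*, a cytoplasmic actin, had the largest change at 1.81 ± 0.44. The UAS-tkv replicates of these genes lay close together, unlike those of the sarcomere genes. In input 0 of 7 passed with total counts as the only scaling, where 323 of 9745 genes rose. Calls were also lost in input and in polysomes with 1 library left out, in fits that weaken the test for every gene.

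Somatic cells other than muscle were compared by marker lists. Of 11 hemocyte markers tested, 10 rose in aramis RNAi against UAS-tkv inputs and 11 in polysomes, against 10.1% and 17.2% of all genes, with medians of 2.70 and 2.57. Their summed input level was 698 and 1395 CPM in UAS-tkv, then 1917 and 1803 CPM in bam RNAi, then 6099.9 and 5716 CPM in aramis RNAi. It thus moved with the sarcomere genes between genotypes and between the UAS-tkv replicates. Between the bam RNAi input replicates it did not, since the sarcomere sum was 13298 and 22615 CPM there. *Pxn*, an extracellular matrix protein of hemocytes, was the most abundant of these markers in the aramis RNAi inputs, at 3074 and 2746 CPM. With 1 library left out the median in input ran from 2.12 to 3.44, and fewer markers passed in these fits, which weaken the test for every gene. Scaled by total counts alone 6 markers rose in input, where 323 of 9745 genes rose.

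Of 4 tracheal markers 2 rose in input, and their sum was 30.2 and 54.1 CPM in UAS-tkv inputs, 64.7 and 96.4 CPM in bam RNAi inputs and 159.8 and 131 CPM in aramis RNAi inputs. Of 9 markers of escort, cap and follicle cells 2 rose and 1, *tj*, fell, where 8.73% of all genes fell, with a median of 0.76. Their sum was 1027 and 1236 CPM in UAS-tkv inputs, 1958 and 1571 CPM in bam RNAi inputs and 2267 and 2344 CPM in aramis RNAi inputs. Between aramis RNAi and bam RNAi inputs their median difference was 0.07. Of 7 fat body markers tested 2 rose, of 13 midgut markers 1 rose, which is not above the 10.1% of all genes, and of 5 neuronal and 4 spermatheca and accessory gland markers tested 0 rose in input with edgeR. At an unadjusted p under 0.05 there were 2 and 1 of these, and DESeq2 called 1 and 0. Among all 9745 genes 3134 were at such a p, and DESeq2 called 1342 higher. Without aramis RNAi input replicate 1 the calls of these lists were lost, in a fit that weakens the test for every gene. In that fit the medians were 0.24 for escort, cap and follicle cells, 0.999 for fat body and 0.05 for midgut. The part of other somatic cells in the sarcomere results was not tested.

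**Figure D5:**
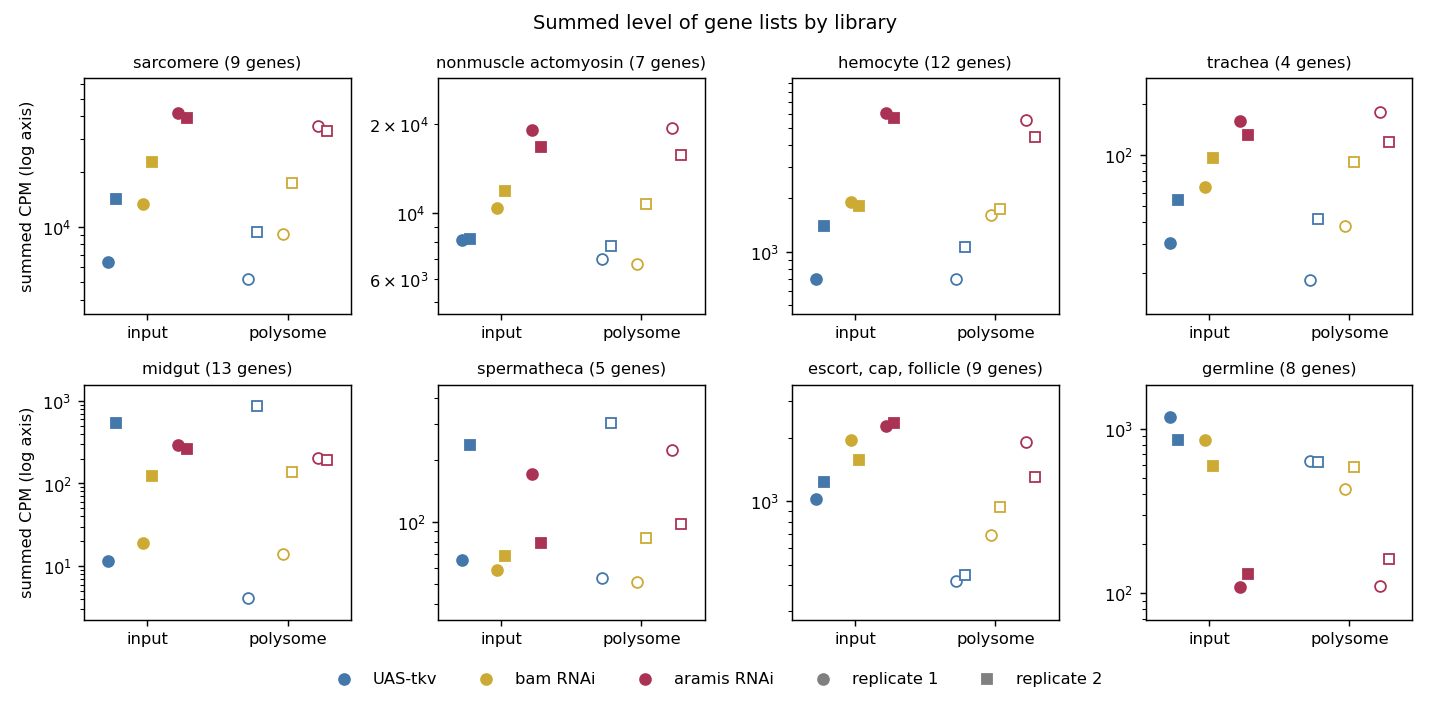
Summed level of the sarcomere genes and of 7 lists of other genes in each library, in CPM on log axes, with input filled, polysome open, circles for replicate 1 and squares for replicate 2. Among inputs the hemocyte, tracheal, nonmuscle actomyosin and escort, cap and follicle cell sums are highest in the 2 aramis RNAi libraries, as are the sarcomere genes. Midgut markers split the replicates of UAS-tkv, at 11.5 and 535 CPM in input, and germline markers are lowest in aramis RNAi.

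Across the 12 libraries the sarcomere genes rose and fell together. The likeness of each to the mean of the others (Pearson's r of log2 CPM over 12 libraries that share genotypes and depth) was highest for *up* at 0.988 and lowest for *bt* at 0.774 and *sls* at 0.798. The closest pair was *Mlc1* and *Tm2* at 0.997, and the most distant was *Mlc2* and *bt* at 0.539. Over the 6 inputs *sls* was at 0.596, and over the 6 polysomes at 0.979.

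Of 7073 other genes with a mean of at least 10 CPM, 380 had an r over 0.9 with the mean of the sarcomere genes, and the median r was 0.03. The 8 most alike were *nrm* (0.993), *CG13506* (0.992), *Pkc53E* (0.986), *abd-A* (0.985), *Pde1c* (0.985), *CG1674* (0.985), *CG6006* (0.985) and *Zasp52* (0.984). *nrm* (neuromusculin) encodes an immunoglobulin-domain adhesion protein. It was at 39.2 and 74.9 CPM in UAS-tkv inputs, 106 and 98.4 CPM in bam RNAi inputs and 185 and 215 CPM in aramis RNAi inputs. *abd-A* is a Hox gene of the abdominal segments. It was at 50.4 and 105 CPM, 198 and 173 CPM, and 408 and 384 CPM in the same inputs. Both were chosen for this likeness, and their order of genotypes is a description. *Zasp52* was the only one of the 8 that was on a list of sarcomere genes.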

How the data were processed

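Poly(A)-selected directional libraries of ovary input and polysome RNA were, per the submitters' processing notes, aligned to dm6 with HISAT2 2.1.0 and counted with featureCounts 1.4.6. The deposited values are whole-number counts per gene, not normalized by the authors. The annotation release, the strand setting and how multi-mapping reads were treated are not given in the sources used here. Of 17023 identifiers, 16647 were matched to the Ensembl annotation of the same assembly, which gave names, dm6 coordinates and exon lengths. The other 376 held 4.13% to 6.46% of a library's counts.

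Counts were fitted in R 4.3.3 with edgeR 4.0.16 (filterByExpr by group, TMM scaling, quasi-likelihood test). The fit of 6 group means over 12 libraries used 9745 genes (7278 removed) and had 6 residual degrees of freedom. Adjusted p-values are by Benjamini-Hochberg over all genes tested. On data simulated with changes in 193 of 9313 genes, all in aramis RNAi inputs, the test recovered 109 of them and made 8 false calls. The simulated spread between libraries was smaller than the common dispersion of 0.178 fitted to the real counts. The simulation therefore does not give the recovery or false call rate of the real fit. TPM used the merged exon length, and likeness used log2 CPM with a prior count of 2. Alternatives were DESeq2 1.42.0, its size factors, total counts, no low-count filter, only the groups compared, a replicate block, for TE a lysate replicate block, and each library left out. The sarcomere genes and the lists were chosen with earlier results of these data known. All sarcomere genes are named, with up to 3 called genes of highest and 3 of lowest log2 fold change from the other lists, and the 8 genes most alike in pattern. Genes named outside this rule, such as Mef2, Argk1, SERCA and Pxn, were chosen after their values were seen.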

Additional observations from a re-analysis of the deposited data

How the results depend on the processing

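The counts of sarcomere genes that passed moved by over 1.5 times under several alternatives, and the cause was not tested. With total counts as the only scaling they were 1 for input aramis RNAi against UAS-tkv and 0 for polysome aramis RNAi against bam RNAi. Of all 9745 genes, 323 and 27 rose in these. Without the low-count filter they were 1 for input aramis RNAi against bam RNAi, 2 for input bam RNAi against UAS-tkv and 3 for polysome bam RNAi against UAS-tkv. Of all 13229 genes, 604, 96 and 491 rose in these. DESeq2 gave 3 for input aramis RNAi against bam RNAi, 4 for polysome aramis RNAi against bam RNAi and 3 for polysome bam RNAi against UAS-tkv. Of all 9745 genes, 496, 1050 and 382 rose in these. Fits of only the groups compared gave 2 for input and 0 for polysome aramis RNAi against bam RNAi, where 929 of 9133 and 0 of 8725 genes rose. With each library left out in turn the counts ran from 0 to 6 for input aramis RNAi against UAS-tkv, from 2 to 9 for polysome aramis RNAi against UAS-tkv, from 0 to 3 for polysome aramis RNAi against bam RNAi and from 0 to 1 for polysome bam RNAi against UAS-tkv. A lone library left in a group is assumed to vary like the others.

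Signs changed in *bt* for input aramis RNAi against bam RNAi, to -0.027 with total counts only and to values from -0.18 to 1.15 with 1 library left out. In the same comparison *sls* ran from -0.72 to 1.07. *Mlc2* in polysomes of bam RNAi against UAS-tkv ran from -0.12 to 1.62. None of these values passed a test. TE differences of single genes changed sign in 20, 21 and 33 of 135 values in the 3 comparisons and none passed.

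With a replicate block, 7 sarcomere genes passed in input and 9 in polysomes for aramis RNAi against UAS-tkv, 1 in polysome aramis RNAi against bam RNAi and 0 elsewhere, TE included. Of all 9745 genes, 1045 rose in that input comparison, and 1725 and 676 in those polysome comparisons. Elsewhere 173 rose for input aramis RNAi against bam RNAi, 8 and 52 for input and polysome bam RNAi against UAS-tkv, and 0 in TE. Across genotypes, correlations of deviations between libraries of equal number ran from -0.14 to 0.19. No source used here says whether equal numbers were processed together, and low correlations cannot settle it. Within a genotype, input and polysome libraries of equal number gave 0.54 in UAS-tkv, 0.39 in aramis RNAi and -0.0029 in bam RNAi. Depth did not limit detection of the sarcomere genes, whose lowest count was 73.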
